A study of Mus musculus with 6 samples.

Results

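The genes described here are 38 genes of the cell's responses to protein and nutrient stress, out of 53379 genes measured. They were listed by symbol in 3 arms: 11 genes of the ATF4 arm, 13 genes of the endoplasmic reticulum (ER) arm and 14 heat shock genes. All 38 were found in the deposited tables through their Ensembl identifiers and GENCODE M21. The measurements are RNA sequencing of small extracellular vesicles (sEV), membrane-bound particles that cells release. The vesicles came from primary cultures of wild-type (WT) mouse embryonic cortical neurons. There were 3 libraries with the treatment OGD/R and 3 with the treatment control, and no further genotype, allele or agent is named for either group. The series' text sets vesicles of hypoxic neurons (HypEV) against vesicles of normoxic neurons (NorEV), and since the other treatment label is control, OGD/R was read as hypoxic. The labels do not spell out OGD/R, do not give its length and do not say whether libraries of a group came from separate cultures, so p-values reflect only library-to-library spread, perhaps technical.

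In the integrated stress response, kinases that sense stress phosphorylate the initiation factor eIF2, general translation slows, and the transcription factor ATF4 is made in larger amounts and turns on genes of amino acid supply and of stress signalling. In the unfolded protein response, the sensors PERK, IRE1 and ATF6 of the ER membrane react to misfolded protein, and genes of ER chaperones and of ER-associated degradation are turned on. In the heat shock response, HSF1 turns on cytosolic chaperones when proteins misfold in the cytosol. All 3 responses are known from neurons under lack of oxygen and glucose, but RNA in vesicles is a sample of the cell's RNA and need not follow its transcription. In libraries of bulk vesicles, fewer vesicles of a kind and less RNA per vesicle cannot be told apart.

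The libraries held 1320916 to 2141610 fragments on genes in the OGD/R group and 1092724 to 1494499 in the control group. Values are FPKM, fragments on a gene divided by its length and by the fragments of the library, so the levels of different genes can be set side by side. A single RNA entry, Gm23935, which resembles ribosomal RNA, took 49.5% of the fragments in OGD/R 1 (95% Wilson interval 49.4 to 49.6%, counting error only) and 24.4% in OGD/R 3 (24.3 to 24.5%), against 0.297% (0.288 to 0.306%) to 4.31% (4.27 to 4.34%) in the other 4 libraries. Protein-coding genes shared 846072, 1114177 and 755427 reads in OGD/R 1, 2 and 3, against 810994, 1096022 and 1163616 in control 1, 2 and 3. The FPKM of every other gene is lowered by such an entry, so values are also given with the reads on protein-coding genes as the library total (the coding scale). All 12 pan-neuronal markers, such as Tubb3, Map2 and Rbfox3, were above 0 in every library, with library medians of 5.69 to 10.2 FPKM in the OGD/R group and 8.53 to 10.9 FPKM in the control group. A list of 12 markers, mostly of liver, muscle and skin but with Ins2 (pancreas) and Umod (kidney), stands for tissues the cultures should lack. Its library medians were 4.91 to 11.1 FPKM in the OGD/R group and 7.81 to 10.2 FPKM in the control group. The pan-neuronal median was the higher of the pair in OGD/R 3 (10.2 against 4.91 FPKM), control 1 (8.72 against 7.81 FPKM) and control 3 (10.9 against 9.82 FPKM), and the lower in the other 3 libraries.

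Most of the stress-response genes were present at middling to high levels in both groups. Low among the tested protein-coding genes were Hspb1 (percentile 2.87), Hspa8 (14.7), Hspa1b (17.2) and Sesn2 (19.4). By their mean over the 6 libraries, 29 of the 38 lay above the median of the protein-coding genes tested. The median rank was percentile 71.4 of those genes for the ATF4 arm, percentile 80.2 for the ER arm and percentile 53.6 for the heat shock arm. The most abundant were Calr, with a mean of 50.2 FPKM, Ddit3 with 42.9 FPKM and Hsp90ab1 with 30.04 FPKM. At the low end stood Hspb1 with 1.54 FPKM, which had 0 reads in OGD/R 1 and in control 1, where 3 reads would be 1.51 and 2.95 FPKM. A median of 40 reads lay behind a member's value in a library, so counting error alone is large for single genes.

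**Figure D1:**
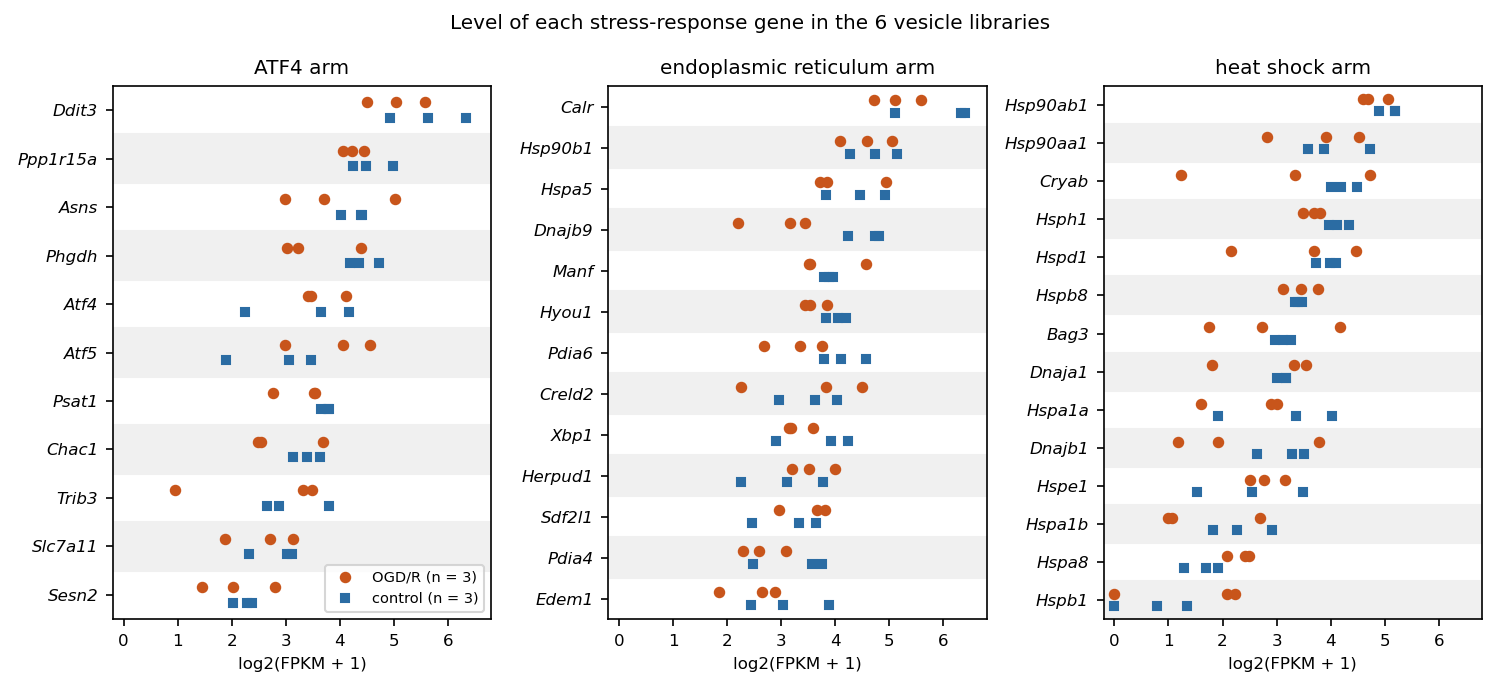
Level of each of the 38 genes as log2(FPKM + 1), with 1 panel an arm and genes ordered by mean FPKM. Orange circles are the 3 OGD/R libraries and blue squares the 3 control libraries. Calr, Ddit3 and Hsp90ab1 have the highest means (50.2, 42.9 and 30.04 FPKM) and Hspb1 the lowest (1.54 FPKM), and for 33 of the 38 genes the points of the groups overlap.

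None of the 38 genes differed between OGD/R and control vesicles past the threshold, an adjusted p under 0.05 in limma's test on log2(FPKM + 1) over 44125 genes. Over all tested genes 0.0159% passed. The smallest adjusted p was 0.741 in the ATF4 arm, 0.604 in the ER arm and 0.779 in the heat shock arm. At an unadjusted p under 0.05, 1 of the 38 (2.63%) was lower in OGD/R vesicles and 0 were higher, against 6.13% and 0.635% of all tested genes. Of the 20356 protein-coding genes, 865 were lower and 33 higher at that level. A test on the reads recovered from the FPKM values (limma-voom) also called 0 of the 36 members it could use, with 0.102% of all genes called and a smallest adjusted p of 0.331 among the members. A difference that misses the threshold with 3 libraries a group does not show that levels were alike.

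Most log2 fold changes, OGD/R minus control, were below 0, as for genes in general. They were below 0 for 30 of the 38 members (78.9%), against 74.9% of all tested genes and 16383 of the 20356 tested protein-coding ones. The split was 2 higher and 9 lower in the ATF4 arm, 2 higher and 11 lower in the ER arm and 4 higher and 10 lower in the heat shock arm. Median log2 fold changes were -0.37 for the ATF4 arm, -0.38 for the ER arm and -0.30 for the heat shock arm, against -0.44 for all tested genes and -0.42 for the protein-coding ones. The direction depended on the scale: on the coding scale, where the median of all tested genes was -0.12, 16 of the 38 (42.1%) were below 0, against 56.9% of all genes tested there. The arm medians on that scale were 0.04, 0.04 and 0.12. OGD/R 1 was the lowest of the 6 libraries for 23 of the 38 members as deposited and for 8 of them on the coding scale.

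The groups did not overlap for 5 members as deposited. All 3 OGD/R values lay under all 3 control values for 4 members (10.5%), Psat1, Dnajb9, Pdia6 and Hsph1, against 10.8% of all tested genes. Hspa8 was the 1 member (2.63%) with all OGD/R values above all control values, against 1.1% of all tested genes. On the coding scale Dnajb9 alone lay lower in every OGD/R library (2.63% of members, against 6.18% of genes). On that scale 5 members (13.2%) lay higher in every OGD/R library, Atf5, Sdf2l1, Herpud1, Hspa8 and Hspb8, against 4.08% of genes. Psat1, Sdf2l1 and Hspb8 fall outside the rule for naming genes and are named because these counts are small. They were chosen after their values were seen, as was Manf, which is given with its library values further on.

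**Figure D2:**
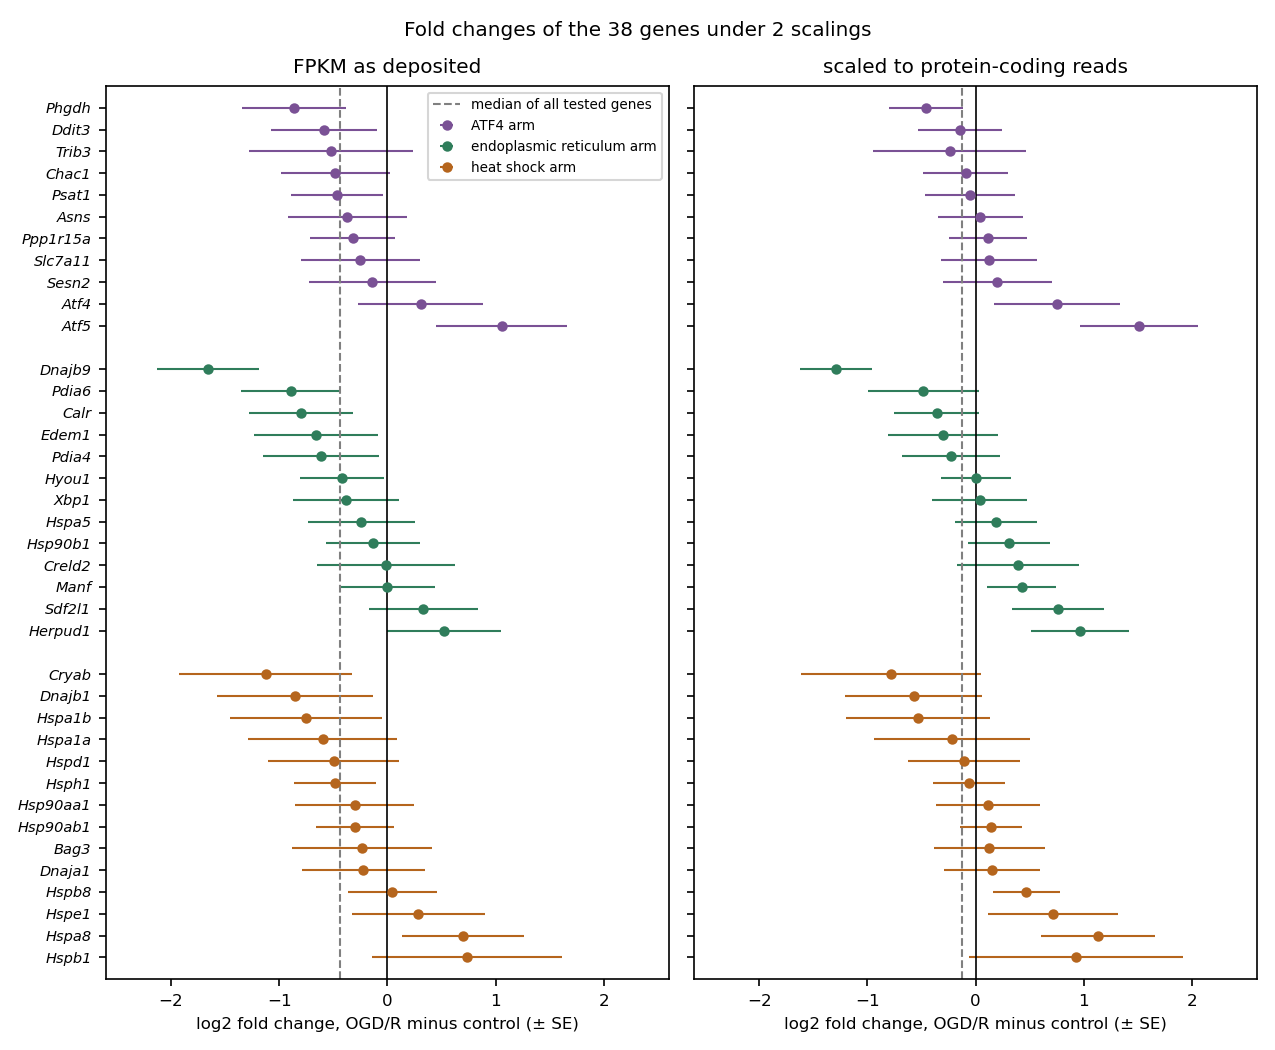
Log2 fold change (OGD/R minus control, bars are ± SE, 3 libraries a group) of each of the 38 genes, as deposited (left) and on the coding scale (right), with the median of all tested genes as a dashed line. The values as deposited run from -1.66 for Dnajb9 to 1.06 for Atf5, and the coding scale moves all 38 upward.

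In the ATF4 arm, Atf5 had the highest fold change and Phgdh the lowest. Atf4 itself, the transcription factor at the centre of the response, stood at 10.02, 9.63 and 16.2 FPKM in OGD/R 1, 2 and 3 and at 3.72, 11.5 and 17.1 FPKM in control 1, 2 and 3. The groups overlapped entirely, with the control libraries spread on both sides of the OGD/R ones. The log2 fold change was 0.31 ± 0.58 (SE, 3 libraries a group, limma adjusted p = 0.895), and it turned to -0.25 without control 1, the library with the lowest value.

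Atf5, a related transcription factor whose translation is also favoured when eIF2 is phosphorylated, stood at 6.94, 15.6 and 22.5 FPKM in the OGD/R libraries and at 10.1, 2.73 and 7.37 FPKM in the control libraries. OGD/R 2 and 3 lay above every control library, and OGD/R 1 lay within the control range. The log2 fold change was 1.06 ± 0.60 (adjusted p = 0.748), and over the other settings tried it ran from 0.60 to 1.62. On the coding scale the values were 17.6, 20.3 and 39.4 in OGD/R, against 13.6, 3.52 and 9.46 in control, and the groups no longer overlapped.

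Ddit3, which encodes the pro-apoptotic factor CHOP, was the most abundant gene of the arm. It stood at 21.7, 46.4 and 32.0 FPKM in OGD/R and at 29.3, 79.6 and 48.3 FPKM in control. The highest values were those of control 2 and 3, but OGD/R 2 and 3 lay above control 1 (log2 fold change -0.59 ± 0.49, adjusted p = 0.798). The fold change of Ddit3 on the coding scale was -0.15. Ppp1r15a, which encodes GADD34, the phosphatase subunit that ends eIF2 phosphorylation, stood at 17.8, 20.9 and 15.6 FPKM in OGD/R and at 30.6, 17.9 and 21.4 FPKM in control. Its log2 fold change of -0.32 ± 0.39 (adjusted p = 0.826) changed sign to 0.11 on the coding scale.

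Serine synthesis is a known target of ATF4. Phgdh, its entry enzyme, stood at 7.15, 20.1 and 8.40 FPKM in OGD/R and at 19.3, 17.2 and 25.4 FPKM in control, with OGD/R 1 and 3 under every control library (-0.87 ± 0.48, adjusted p = 0.741). Psat1, which encodes the next enzyme of that path, stood at 10.5, 10.6 and 5.79 FPKM in OGD/R, against 12.9, 12.7 and 11.5 FPKM in control. Those groups did not overlap as deposited, but the log2 fold change of -0.47 ± 0.43 (adjusted p = 0.799) came to -0.05 on the coding scale. The other 5 genes of the arm were Asns (asparagine synthetase), Chac1 (a glutathione-degrading enzyme), Sesn2 (an inhibitor of mTORC1 signalling), Slc7a11 (the cystine transporter) and Trib3 (a pseudokinase that dampens ATF4 signalling), with log2 fold changes of -0.52 for Trib3 to -0.14 for Sesn2. On the coding scale these ran from -0.24 for Trib3 to 0.20 for Sesn2.

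The promoters of this arm were searched for the core of the ATF4 element, TGATGNAA on either strand, from 250 bases before to 50 after the start, in the RefSeq table of GRCm38.p6. All 11 genes had a promoter there, and 4 held the core (Asns, Chac1, Slc7a11 and Trib3), against 4.51% of 27025 genes. The cores of Asns, Chac1 and Slc7a11, with 5 bases on each side, are printed to show what was matched, with the core in capitals (reversed in Chac1). They lie at chr6:7693220-7693237 (minus strand), chr2:119351044-119351061 (plus strand) and chr3:50443667-50443684 (minus strand).
Asns: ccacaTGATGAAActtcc
Chac1: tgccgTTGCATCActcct
Slc7a11: gtggcTGATGCAAacctg
Beside these sequences, the log2 fold changes as deposited were -0.37 for Asns, -0.48 for Chac1, -0.25 for Slc7a11 and -0.52 for Trib3. On the coding scale they were 0.04, -0.09, 0.12 and -0.24 in the same order, so the signs were mixed there. A match of these letters is a description and not a measured binding site. The genes were listed for their part in this response, so their higher share of matches is no test.

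The ER arm held the largest fold change in size of the 38, that of Dnajb9. Dnajb9 encodes ERdj4, a co-chaperone of BiP and a known target of the XBP1 branch. It stood at 3.60, 9.84 and 7.998 FPKM in OGD/R 1, 2 and 3 and at 17.8, 25.6 and 27.2 FPKM in control 1, 2 and 3, from 19, 35 and 26 reads in OGD/R and 48, 89 and 100 reads in control. Every OGD/R library lay under every control library. The log2 fold change was -1.66 ± 0.47 (unadjusted p = 0.00716, adjusted p = 0.604), and the gene did not pass the threshold.

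Dnajb9 kept its direction and its separation on the coding scale, with 9.13, 12.8 and 14.0 in OGD/R, against 24.0, 33.0 and 34.9 in control. The log2 fold change there was -1.29 ± 0.33 (adjusted p = 0.735), and it ran from -1.91 to -1.16 over the other settings tried. Its smallest adjusted p over those settings was 0.182, without OGD/R 2, and its largest was 0.969.

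The ER chaperone genes Hspa5 and Hsp90b1 had fold changes smaller in size than their SE. Hspa5, which encodes BiP, the main ER chaperone and the gauge of the unfolded protein response, stood at 12.1, 29.6 and 13.4 FPKM in OGD/R and at 20.9, 13.3 and 29.3 FPKM in control. The groups spanned nearly the same range, and the log2 fold change of -0.24 ± 0.49 (adjusted p = 0.906) became 0.19 on the coding scale. Hsp90b1, which encodes the chaperone GRP94, stood at 16.1, 23.2 and 32.2 FPKM in OGD/R and at 34.4, 18.2 and 25.5 FPKM in control (-0.13 ± 0.43, adjusted p = 0.945, and 0.31 on the coding scale).

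Calr, which encodes the lectin chaperone calreticulin, was the most abundant of the 38 genes. It stood at 25.4, 46.9 and 33.6 FPKM in OGD/R and at 33.5, 82.9 and 78.7 FPKM in control. Control 2 and 3 lay above every OGD/R library, while control 1 lay beside OGD/R 3 (log2 fold change -0.80 ± 0.48, adjusted p = 0.753). The fold change of Calr on the coding scale was -0.36. Pdia6, a protein disulfide isomerase, stood at 9.23, 5.41 and 12.5 FPKM in OGD/R, against 22.7, 16.3 and 12.9 FPKM in control. Its groups were apart only narrowly, by OGD/R 3 and control 3 (-0.89 ± 0.46, adjusted p = 0.726), and they overlapped on the coding scale.

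Xbp1, the transcription factor whose mRNA is spliced by IRE1, stood at 8.11, 11.05 and 7.82 FPKM in OGD/R and at 6.45, 17.9 and 14.1 FPKM in control. The gene-level values do not tell its spliced from its unspliced form. Its log2 fold change was -0.38 ± 0.49 (adjusted p = 0.837). Herpud1, which encodes a membrane protein of ER-associated degradation, had the highest fold change of the arm, with 8.13, 14.9 and 10.5 FPKM in OGD/R and 3.75, 7.61 and 12.7 FPKM in control. The groups overlapped through control 3 (0.52 ± 0.53, adjusted p = 0.801), and on the coding scale they lay apart, with 20.6, 19.3 and 18.3 in OGD/R, against 5.05, 9.82 and 16.3 in control.

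The remaining 6 genes of the ER arm were Sdf2l1, Pdia4, Creld2, Manf, Hyou1 and Edem1. Sdf2l1, which works with BiP, had a log2 fold change of 0.33 ± 0.50 (adjusted p = 0.866). Hyou1, a large ER chaperone, had -0.42, Pdia4, another disulfide isomerase, -0.61, and Edem1, a lectin of ER-associated degradation, -0.66. On the coding scale the values were 0.76 for Sdf2l1, 0.005 for Hyou1, -0.23 for Pdia4 and -0.30 for Edem1. Manf, a secreted neurotrophic factor held in the ER, stood at 10.6, 22.8 and 10.4 FPKM in OGD/R and at 13.8, 14.5 and 12.8 FPKM in control. Its OGD/R libraries spread on both sides of the control libraries (adjusted p = 0.999).

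The ER stress element, bound by ATF6 with NF-Y, is written here as CCAAT, 9 bases and CCACG, on either strand. It was found in 5 of the 11 ER-arm genes with a promoter in the RefSeq table (Calr, Creld2, Hsp90b1, Hspa5 and Pdia6), against 0.137% of 27025 genes. Herpud1 held the second form (ATTGG, 1 base, CCACG), against 0.0444% of genes, and none of the 11 held TGACGTGG, an element of XBP1 and ATF6, against 0.714% of genes. The windows are printed because they are what these genes share in sequence, with the element in capitals and 5 bases on each side (GRCm38.p6). They lie at chr2:34772020-34772048 (plus strand) for Hspa5, chr10:86705633-86705661 (minus) for Hsp90b1, chr12:17266486-17266514 (plus) for Pdia6, chr8:84847070-84847098 (minus) for Calr, chr15:88819515-88819543 (plus) for Creld2 and chr8:94386372-94386392 (plus) for Herpud1.
Hspa5: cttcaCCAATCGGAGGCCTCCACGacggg
Hsp90b1: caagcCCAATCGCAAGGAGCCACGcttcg
Pdia6: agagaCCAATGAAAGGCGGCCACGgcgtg
Calr: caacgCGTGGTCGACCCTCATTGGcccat
Creld2: cttctCGTGGCGAGCCTCAATTGGtccac
Herpud1: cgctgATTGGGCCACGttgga
In Calr and Creld2 the element reads on the opposite strand. Because the ER-arm genes were listed for their part in this response, their higher share of matches is no test. As deposited, the 5 genes with the ER stress element had log2 fold changes of -0.89 to -0.01, with a median of -0.24. The 6 ER-arm genes whose window lacks it had -1.66 to 0.52, with a median of -0.50, and these include both Dnajb9 and Herpud1. On the coding scale the 5 genes had -0.48 (Pdia6) to 0.39 (Creld2), and the 6 had -1.29 (Dnajb9) to 0.97 (Herpud1). There Creld2, Hsp90b1 and Hspa5 were above 0, and Calr and Pdia6 below 0. The ranges overlap on both scales, and absence of the letters says only that they are not in this window.

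**Figure D3:**
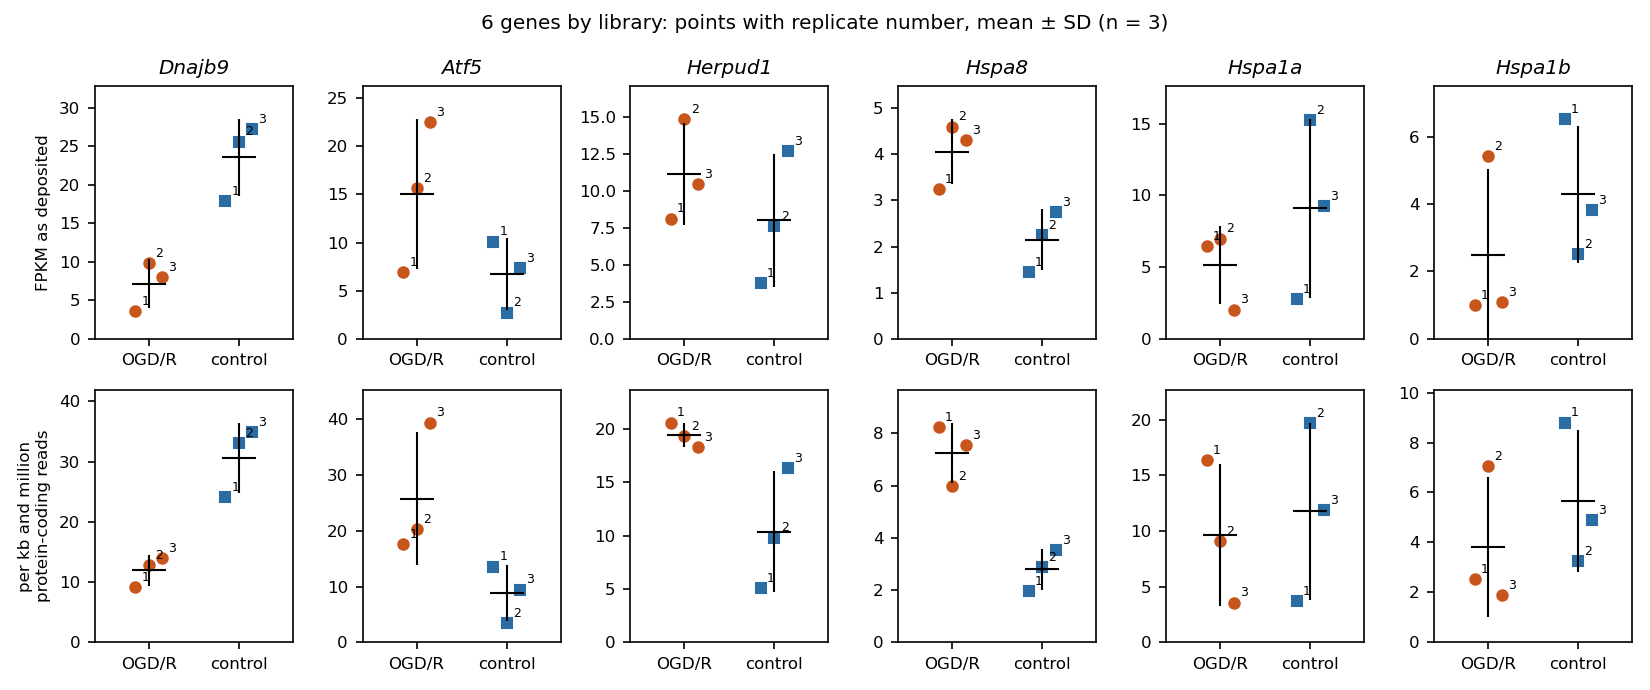
Levels of Dnajb9, Atf5, Herpud1, Hspa8, Hspa1a and Hspa1b by library, as deposited (FPKM, top) and on the coding scale (bottom), with OGD/R left of control. Points carry the replicate number, and black lines are the mean ± SD of 3 libraries, cut at 0 for Hspa1b. Dnajb9 lies lower in every OGD/R library on both scales (3.60 to 9.84 FPKM, against 17.8 to 27.2 FPKM in control), Hspa8 lies higher on both, Atf5 and Herpud1 lie apart on the coding scale alone, and Hspa1a and Hspa1b overlap on both.

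The heat shock arm spanned mean levels of 1.54 FPKM for Hspb1 to 30.04 FPKM for Hsp90ab1, with a median of 7.78 FPKM. Hsp90ab1, the constitutive cytosolic HSP90, stood at 23.3, 32.4 and 24.9 FPKM in OGD/R and at 35.6, 28.6 and 35.3 FPKM in control (log2 fold change -0.30 ± 0.36, adjusted p = 0.826). Hsp90aa1, its stress-inducible paralog, stood at 6.12, 14.1 and 21.9 FPKM in OGD/R and at 25.4, 10.998 and 13.7 FPKM in control (-0.30 ± 0.55, adjusted p = 0.891). For both the groups overlapped, and on the coding scale both fold changes had the other sign, at 0.14 and 0.11.

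The inducible HSP70 genes Hspa1a and Hspa1b are the classical readout of HSF1 activity. Hspa1a stood at 6.45, 6.99 and 2.04 FPKM in OGD/R and at 2.78, 15.3 and 9.25 FPKM in control (-0.60 ± 0.69, adjusted p = 0.819). Hspa1b stood at 0.9995, 5.43 and 1.08 FPKM in OGD/R and at 6.53, 2.52 and 3.82 FPKM in control (-0.75 ± 0.70, adjusted p = 0.799). Neither separated the groups, and neither had its highest value in an OGD/R library. Their transcripts are 99.1% identical over the longest aligned stretch, so how reads were shared between them is uncertain.

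Hspa8, the constitutive HSC70, was low and yet the 1 member with all OGD/R libraries above all control libraries. It stood at 3.25, 4.5998 and 4.32 FPKM in OGD/R, against 1.45, 2.24 and 2.75 FPKM in control, from 22, 21 and 18 reads in OGD/R and 5, 10 and 13 reads in control. The log2 fold change was 0.70 ± 0.56 (adjusted p = 0.798), and 1.13 ± 0.53 (adjusted p = 0.861) on the coding scale. Its level lay at the 14.7th percentile of the protein-coding genes tested, and 8 genes match more than 50% of its transcript at 90% identity or more. The summed FPKM of those 8 copies were 5.63, 34.0 and 7.41 in OGD/R and 11.4, 22.6 and 20.4 in control, which overlap between the groups. As a sum over 8 genes they lie above the values of Hspa8 in every library. Single copies averaged 0.475 to 4.26 FPKM, beside 3.10 FPKM for Hspa8.

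Among the small heat shock proteins, Cryab (alpha-B crystallin) stood at 9.20, 25.4 and 1.36 FPKM in OGD/R and at 17.2, 21.5 and 14.98 FPKM in control. The lowest value rests on 2 reads in OGD/R 3, and the highest of all is OGD/R 2 (-1.12 ± 0.80, adjusted p = 0.779). Hspb1 (HSP25) stood at 0, 3.72 and 3.26 FPKM in OGD/R and at 0, 1.52 and 0.719 FPKM in control, from at most 5 reads in a library. Its fitted log2 fold change of 0.74 ± 0.88 (adjusted p = 0.825) was the highest of the arm and rests on these few reads. Hspb1 has a protein-coding copy, Gm9817, that is 99.8% identical over the longest aligned stretch and averaged 14.8 FPKM, far above Hspb1. As deposited, the summed FPKM of Gm9817 and a second copy were 6.09, 11.5 and 11.1 in OGD/R, against 14.1, 30.5 and 17.7 in control. Every OGD/R library then lay under every control library, an order opposite to the fold change of Hspb1. On the coding scale these groups overlapped, as OGD/R 3 passed control 1. Hspb8, a partner of the co-chaperone BAG3, stood at 7.71, 12.6 and 10.005 FPKM in OGD/R and at 9.07, 10.1 and 9.58 FPKM in control (0.04 ± 0.41, adjusted p = 0.982).

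Hsph1, the HSP110 exchange factor of HSP70, stood at 10.2, 11.9 and 12.9 FPKM in OGD/R, against 19.2, 14.7 and 16.3 FPKM in control. The groups lay apart as deposited, with a log2 fold change of -0.48 ± 0.38 (adjusted p = 0.797). On the coding scale it was -0.06 and the groups overlapped. The other 5 genes, namely the HSP40 co-chaperones Dnajb1 and Dnaja1, the mitochondrial chaperonins Hspd1 and Hspe1, and Bag3, had log2 fold changes of -0.85 for Dnajb1 to 0.28 for Hspe1. On the coding scale these ran from -0.57 for Dnajb1 to 0.72 for Hspe1.

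The heat shock element, bound by HSF1, was searched as 3 alternating triplets GAA and TTC with 2 bases between them. It was found in 3 of the 10 heat shock genes with a promoter in the RefSeq table (Hspd1, Hspe1 and Hsph1), against 0.662% of 27025 genes. Hspd1 and Hspe1 lie head to head and share the stretch at chr1:55088054-55088081, printed on the strand of Hspe1 (plus strand) with the element in capitals.
Hspe1: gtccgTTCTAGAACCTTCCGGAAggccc
The pair that shares this stretch did not have the same sign. Log2 fold changes were -0.50 ± 0.61 for Hspd1 and 0.28 ± 0.61 for Hspe1, both within their error. As in the other arms, the genes were listed for their part in the response, so the share of matches is no test.

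Near-identical copies limit several of these values. Of the 38 genes, 8 have at least 1 other gene in the tables that covers 50% of their transcript at 90% identity, and 7 of the 8 are heat shock genes. Processed pseudogenes of Hsp90aa1 stood near its own level: Gm12346 averaged 15.2 FPKM and Gm5844 12.6 FPKM, beside 15.4 FPKM for Hsp90aa1. Gm6368 averaged 25.6 FPKM, beside 30.04 FPKM for Hsp90ab1. Phgdh, the 1 gene outside the heat shock arm, has 14 such copies, each with a mean of at most 4.11 FPKM. Their summed FPKM were 17.0, 38.1 and 15.2 in OGD/R and 18.4, 34.1 and 33.0 in control, above those of Phgdh in every library but control 1. Exons of other genes overlapped at most 6.13% of a member's exons on the same strand (Ddit3) and 19.0% on the opposite strand (Hspa1a), and whether the counting used strand is not given in the sources used here.

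Other genes of the same pathways, 113 in 4 lists, were all tested with limma, and 0 passed the threshold. In limma-voom, 0 of the 103 that it could use passed. Of 18 sensors and regulators, 2 were higher and 16 lower in OGD/R (median log2 fold change -0.45, against -0.44 for all tested genes). Their smallest p-values belonged to Atf6, the ER membrane sensor, with 9.41, 14.6 and 11.1 FPKM in OGD/R, against 24.2, 19.3 and 24.4 FPKM in control (-0.91 ± 0.38, adjusted p = 0.720), and to Eif2ak2, the kinase PKR (-1.24 ± 0.52, adjusted p = 0.720). For both, every OGD/R library lay under every control library, as for 4 of the 18 sensors and regulators, against 10.8% of all tested genes. Both were picked by their small p-values, which favours groups that lie apart. On the coding scale 3 of the 18 lay lower in every OGD/R library, against 6.18% of genes. The log2 fold changes there were -0.49 for Atf6 and -0.95 for Eif2ak2. With libraries centred on their medians, the groups of Atf6 overlapped. At an unadjusted p under 0.05, 3 of 18 sensors and regulators (16.7%) were lower in OGD/R, as were 0 of 28 other ATF4 targets, 1 of 28 other ER genes (3.57%) and 1 of 39 other heat shock genes (2.56%), against 6.13% of all tested genes. At that level 0 genes of the 4 lists were higher in OGD/R, against 0.635% of all tested genes.

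Of 28 other ATF4 targets, 6 were higher and 22 lower (median -0.40). The smallest p-values there were those of Iars, an aminoacyl-tRNA synthetase (-0.84 ± 0.37, adjusted p = 0.720), and Stc2, a secreted glycoprotein (-0.73 ± 0.43, adjusted p = 0.750). Of 28 other ER genes, 3 were higher and 25 lower (median -0.57), led by the disulfide isomerase-family genes Erp44 (-0.98 ± 0.41) and P4hb (-1.13 ± 0.51), both with an adjusted p of 0.720. Of 39 other heat shock genes, 12 were higher and 27 lower (median -0.25). Hspb3, a small heat shock protein of muscle, stood at 4.19, 7.97 and 2.91 FPKM in OGD/R, against 12.9, 20.8 and 19.7 FPKM in control (-1.70 ± 0.49, adjusted p = 0.604), and Hspa2, a testis-enriched HSP70, had -1.28 ± 0.56 (adjusted p = 0.720). On the coding scale the splits were 8 higher and 10 lower for sensors and regulators, 14 and 14 for other ATF4 targets, 10 and 18 for other ER genes and 23 and 16 for other heat shock genes.

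**Figure D4:**
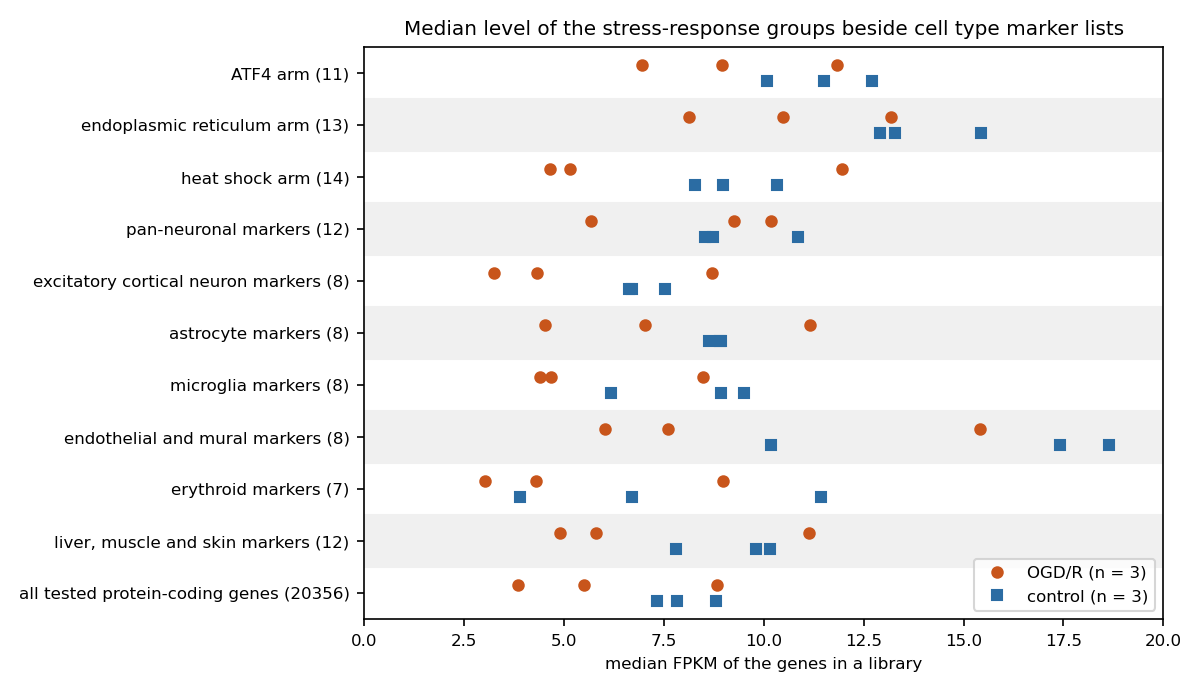
Median FPKM of each gene list in each library, with OGD/R (circles) above control (squares), for the 3 arms, marker lists of cell types and all tested protein-coding genes; list sizes are in parentheses. Medians of the 3 arms are lowest in OGD/R 1 (6.95, 8.13 and 4.64 FPKM), as is that of all tested protein-coding genes (3.86 FPKM), and the marker lists of all tissues lie in the same range, from 3.03 to 18.6 FPKM.

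Relative to the median of all tested genes in the same library, the arms stood at similar heights in both groups. On the log2(FPKM + 1) scale, the ATF4 arm's median lay 1.06, 0.62 and 0.94 above that median in OGD/R 1, 2 and 3 and 0.74, 0.86 and 0.57 above it in control 1, 2 and 3. The ER arm lay 1.26, 0.76 and 1.14 above it in OGD/R and 1.31, 0.92 and 0.73 above it in control. The heat shock arm lay 0.54, 0.63 and 0.24 above it in OGD/R and 0.48, 0.59 and 0.25 above it in control. For all 3 arms the OGD/R and control values overlapped, and the arms kept the same order in every library but OGD/R 2, where the ATF4 and heat shock arms were nearly level.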

How the data were processed

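The authors deposited 1 table per library of FPKM values for 53379 Ensembl genes. HTSeq is named in the tables' names. The aligner, build and annotation are not given in the sources used here. Extraction used Trizol and library preparation an Epibiotek longRNA-seq kit, per the labels. FPKM were joined to GENCODE M21 (53274 genes matched), and 95.95% of values above 0 were whole multiples of 1 read (tolerance 0.01 reads).

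Values were tested as log2(FPKM + 1) with limma 3.58.1 under R 4.3.3, for genes averaging 1 FPKM or more. The fit used all 6 libraries, no covariates, a variance trend and two-sided p-values. P-values were adjusted by Benjamini-Hochberg over all 44125 tested genes, with 0.05 as the threshold. A fold change on this scale understates the change of low genes. The test was checked on simulated data. Alternatives were a pseudocount of 0.1, no filter, a minimum mean of 5 FPKM, libraries centred on their medians, the coding scale, no variance trend, a replicate block, limma-voom with TMM scaling on recovered reads, and libraries left out.

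The members and lists were chosen with earlier results of these data known. Per arm, values in every library are given for the 3 genes of smallest p, the 2 most abundant, the gene of highest fold change and 6 well-known genes. Of each other list, the 2 genes of smallest p are named. Copies were found with blastn 2.17.0. Promoters came from RefSeq (GRCm38.p6), with a match for 32 of the 38 genes, and tables were handled in Python 3.11.15 with pandas 2.3.3, numpy 2.4.6 and matplotlib 3.10.9.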

Additional observations from a re-analysis of the deposited data

How the results depend on the processing

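Over 15 alternative settings 0 of the 38 members passed the threshold in any. All 35 results were recomputed: 466 of 521 values stayed the same, 29 moved and 26 reversed, and 19 of 28 gene values never reversed. Staying the same meant an unchanged direction and side of the threshold for genes, a shift under the spread for arm medians, and an equal or close count. The filters, the variance trend and the replicate block leave a tested gene's fold change as it is. Many of the 466 values thus stayed the same by design. The count of tested genes past the threshold, 7, became 0 with a pseudocount of 0.1, without a filter, with centring, without the variance trend and without OGD/R 1 and 3, and 43 with limma-voom. Leaving out single libraries gave 0 to 71, with 71 without OGD/R 2. Deviations of same-numbered libraries from their group means correlated at 0.0446, 0.102 and -0.0582. No pairing by number was seen, but 3 libraries a group cannot exclude one. The replicate block called 0 genes. Members apart and lower in OGD/R, 4, were 1 with centring, the coding scale and limma-voom, and 4 to 16 with single libraries left out (16 without OGD/R 2). Members apart and higher, 1, were 0 at a mean of at least 5 FPKM, where Hspa8 is not tested. They were 4 with centring, 5 on the coding scale and 5 with limma-voom. Without OGD/R 1 and 3 they were 16, and with single libraries left out 1 to 5. The share of all tested genes that lay apart is given only as deposited and on the coding scale. Without that share the other counts, those with centring and limma-voom among them, are not a result about the members. With fewer libraries groups also lie apart more easily. Arm medians minus that of all genes ran from 0.0042 to 0.29 (ATF4), -0.12 to 0.26 (ER) and 0.0145 to 0.36 (heat shock) with single libraries left out, and the ER arm's was -0.23 without OGD/R 1 and 3. With centring, the coding scale and limma-voom, log2 fold changes reversed to 0.13, 0.11 and 0.13 for Ppp1r15a, 0.32, 0.31 and 0.29 for Hsp90b1, 0.15, 0.14 and 0.13 for Hsp90ab1, 0.15, 0.11 and 0.12 for Hsp90aa1, and 0.21, 0.19 and 0.22 for Hspa5, and Xbp1 reversed to 0.070 and 0.038 with centring and the coding scale. With single libraries left out, Hsp90b1 ran from -0.37 to 0.11 (0.11 without OGD/R 1, 0.08 without control 1), Hsp90aa1 from -0.68 to 0.16 (0.16 without OGD/R 1, 0.03 without control 1), Atf4 from -0.25 (without control 1) to 0.72, and Hspa5 from -0.63 to 0.018 (without control 3). Without OGD/R 1 and 3, Cryab reversed to 0.50, Hspa5 to 0.53 and Hspa1b to 0.35, with 1 OGD/R library assumed to vary like the control libraries. The cause of these changes was not tested. Depth limits low genes such as Hspb1 most.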
